A study of Mus musculus with 12 samples.

Results

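The regenerating islet-derived (Reg) genes encode small secreted proteins with a C-type lectin fold, named after a transcript found in regenerating pancreatic islets. In the mouse pancreas they are made mostly by acinar cells, the enzyme-secreting cells that surround the islets. They are known to rise in injured or inflamed pancreas, where interleukin-6 and interleukin-22 act through the transcription factor Stat3, and the glycosyltransferase Extl3 has been proposed as a receptor. The members described here were the rows of the deposited expression table that carry the symbols Reg1, Reg2, Reg3a, Reg3b, Reg3d and Reg3g, 6 genes of 23234. Reg4, a more distant relative encoded elsewhere in the genome, was listed at 0 FPKM in all 12 libraries.

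The study followed islets of C57BL/6 mice from isolation to life as a graft in inguinal white fat, a depot that lies beneath the skin of the groin. Total RNA was sequenced from 4 libraries of isolated islets that had not been transplanted, 4 libraries of grafts labelled day 60 and 4 libraries of grafts labelled day 120. The labels state no genotype, age, sex or treatment beyond the strain, and leave unsaid whether the libraries of a group were made from different animals or preparations. Each p-value thus reflects the spread among these libraries alone, and that spread may be technical.

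The labelled tissue, islet, was checked against 26 endocrine marker genes, whose summed level lay between 56110 and 67040 FPKM before transplantation. The same sum was 42100 to 90000 FPKM among the day 60 libraries and 65580 to 78830 FPKM among the day 120 libraries. FPKM are fragments counted on a gene, scaled by its length and by the mapped fragments of the library, so they allow levels of different genes to be compared. All FPKM of a library summed to between 396769 and 786366, and the read depth is unknown. A listed 0 can be a failed estimate in this table, since the insulin gene Ins2 was listed at 0 in 10 of 12 libraries. Graft values of 0 are therefore given as listed, without a fold change. These are tissue mixtures, in which fewer cells of a type and less RNA per cell cannot be told apart. Grafts also held RNA of the host fat: 10 adipocyte genes summed to at most 44.5 FPKM in any isolated islet library and to 245 to 10900 FPKM in the 8 grafts.

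In the mouse reference annotation the members lie side by side on chromosome 6 in the order Reg3b, Reg3d, Reg3a, Reg2, Reg1, Reg3g, with 1 pseudogene between Reg1 and Reg3g. The coding sequences of Reg1 and Reg2, taken as the longest open reading frame of the GENCODE M21 transcripts, were identical at 82.5% of 498 aligned bases. The 4 Reg3 genes were identical to each other at 66.1% to 76.4% and to Reg1 or Reg2 at 60.1% to 67.0%. None of the 15 pairs shared a stretch of 50 bases. The sources used here give no read length, so how far shorter reads could be shared between members is not known.

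The stretches of promoter below are shown because the members moved together across the libraries. Each is 80 bases long, written 5′ to 3′ on the gene's strand, from RefSeq on the build GRCm38.p6, which is not the build of the expression table. All 6 members were matched. Capitals in Reg1 and Reg2 mark an E-box, CANNTG, followed after 6 bases by TTCCC, the arrangement known from binding sites of PTF1, the main acinar transcription factor complex, and in the other genes they mark CACCTG, a form of E-box.
Reg1, chr6:78425788-78425867, plus strand: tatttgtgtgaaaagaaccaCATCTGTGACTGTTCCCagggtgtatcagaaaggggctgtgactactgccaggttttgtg
Reg2, chr6:78404956-78405035, plus strand: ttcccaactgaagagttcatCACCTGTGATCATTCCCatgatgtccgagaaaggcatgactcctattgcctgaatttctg
Reg3a, chr6:78380523-78380602, plus strand: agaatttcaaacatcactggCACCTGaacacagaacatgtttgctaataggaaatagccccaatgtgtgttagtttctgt
Reg3b, chr6:78370651-78370730, plus strand: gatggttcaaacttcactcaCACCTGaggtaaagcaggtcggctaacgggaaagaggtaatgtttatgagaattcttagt
Reg3d, chr6:78379030-78379109, minus strand: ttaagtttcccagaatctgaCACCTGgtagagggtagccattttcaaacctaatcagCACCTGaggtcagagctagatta

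In all, 3 patterns of letters were searched on both strands in the 250 bases before each start. The longer pattern of CANNTG, 6 bases and TTCCC was found in Reg1 and Reg2, 2 of 6 members, in 0 of 25 acinar genes with a promoter in the table and in 0.295% of all 32851 promoters. CACCTG was found in Reg2, Reg3a, Reg3b and Reg3d, 4 of 6 members, in 14 of 25 acinar genes and in 17.2% of all promoters. In Reg2 the CACCTG is part of the longer match. TTCNNNGAA, the core of a STAT site, was found in Reg3b and Reg3d, in 2 of 25 acinar genes and in 7.02% of all promoters. Reg3g held none of them in this window. These letters were chosen after the sequences had been seen, and a match is not a measured binding site.

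Before transplantation all 6 Reg genes were present in every isolated islet library, at levels that differed widely between libraries. After transplantation 4 of them, Reg2, Reg3a, Reg3b and Reg3d, were listed at 0 in all 8 grafts, and Reg1 and Reg3g did not exceed 1.01 FPKM in any graft. Every member was lower in each graft than in each isolated islet library. The enzyme gene Ctrb1, which encodes chymotrypsinogen B and marks acinar cells, had the same course.

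Reg1, the most abundant member, stood at 299, 2292, 601 and 2992 FPKM in isolated islet replicates 1 to 4. In day 60 grafts it was listed at 1.01, 0.133, 0 and 0 FPKM, and in day 120 grafts at 0.166, 0, 0 and 0 FPKM. Replicates 2 and 4 of the isolated islets were high and replicates 1 and 3 low, and no graft came near the lowest of them. The mean in isolated islets was 1546 ± 1303 FPKM (SD, n = 4). On the log2(FPKM + 1) scale the difference from isolated islets was -9.75 (SE 0.583) at day 60 and -9.99 (SE 0.583) at day 120. The limma adjusted p-values were 5.16e-07 and 3.62e-07. They rest on a spread pooled over all 3 groups, to which grafts at or near 0 add little. With only the 2 groups compared, the limma adjusted p-values were 5.31e-05 and 0.000212.

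Reg2, the closest relative of Reg1, stood at 133, 505, 108 and 637 FPKM in isolated islet replicates 1 to 4 and was listed at 0 in each of the 8 grafts. The same pair of libraries was high, but here replicate 1 lay above replicate 3. The mean in isolated islets was 346 ± 266 FPKM (SD, n = 4), and the limma adjusted p-values were 3.23e-07 at day 60 and 3.00e-07 at day 120.

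Reg3b, also called pancreatitis-associated protein, stood at 84.6, 438, 77.7 and 540 FPKM in isolated islets and was listed at 0 in every graft. Reg3d, the mouse relative of the islet neogenesis-associated protein of hamster, stood at 18.2, 99.7, 18.0 and 128 FPKM in isolated islets and at 0 in every graft. Reg3a was lower, at 8.76, 40.4, 8.02 and 44.5 FPKM, and again at 0 in every graft. In these 3 genes replicates 2 and 4 were several times higher than replicates 1 and 3, which were nearly level with each other.

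Reg3g, which encodes a bactericidal lectin of the gut, had the lowest level of the 6, at 5.72, 11.9, 2.19 and 14.8 FPKM in isolated islets. It was listed at 0.222 FPKM in graft day 60 replicate 1 and at 0 in the other 7 grafts. Limma adjusted p-values for the Reg3 genes ran from 1.64e-06 for Reg3b to 0.000288 for Reg3g at day 60 and from 1.57e-06 for Reg3b to 0.000400 for Reg3g at day 120. The differences on the log2(FPKM + 1) scale depend on the added 1 where the grafts are at 0, and they are not fold changes.

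All 6 members were called lower at an adjusted p under 0.05 in both comparisons. Of the 13433 tested genes 12.3% were called lower and 43.7% in either direction at day 60, and 7.03% lower and 31.4% in either direction at day 120. That count is no evidence about the family by itself. A gene was tested if it reached 1 FPKM in 4 libraries, and the members passed with all 4 isolated islet libraries, joined in Reg1 by a single graft, so they had to differ. The groups did not overlap in any of the 6, against 5.02% of tested genes that were lower in all 8 grafts than in all 4 isolated islets. Both graft groups were compared with the same isolated islets, so the 2 comparisons are not independent.

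**Figure D1:**
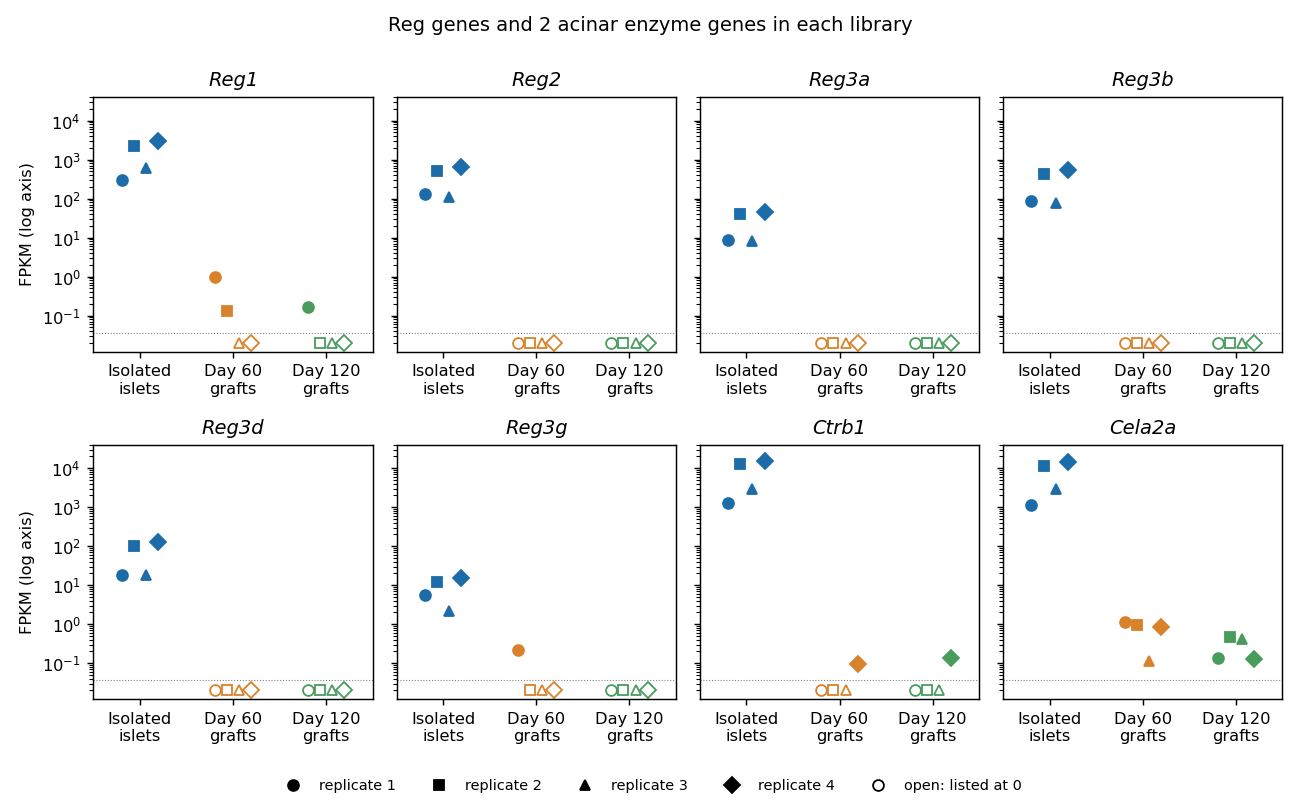
FPKM on a log axis of the 6 Reg genes and the acinar enzyme genes Ctrb1 and Cela2a in each of the 12 libraries, where point shape gives the replicate and open points under the dotted line are values listed at 0. All filled points of the isolated islets lie above every graft, and replicates 2 and 4 of the isolated islets are the highest in each gene.

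Between day 120 and day 60 grafts no member was called. Reg2, Reg3a, Reg3b and Reg3d were at 0 in both groups, so they have no estimate of a difference. Reg1 differed by -0.24 (SE 0.583, limma adjusted p = 0.885) and Reg3g by -0.07 (SE 0.382, limma adjusted p = 0.959) on the log2(FPKM + 1) scale. Both SE come from the fit of all 3 groups, in which the isolated islets held most of the spread. They thus reflect mainly libraries that are not in this comparison. Of all tested genes 2 were called in this comparison, or 0.0149%.

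The non-zero graft values of the members were few. Graft day 60 replicate 1 held 1.01 FPKM of Reg1 and 0.222 FPKM of Reg3g, graft day 60 replicate 2 held 0.133 FPKM of Reg1, and graft day 120 replicate 1 held 0.166 FPKM of Reg1. Ctrb1 was listed at 0 in these 3 grafts and at 0.098 and 0.133 FPKM in replicate 4 of the day 60 and day 120 grafts. Graft day 60 replicate 1 also had the highest adipocyte sum, 10900 FPKM, against 292 to 3375 FPKM in the other day 60 grafts. The part of this in its Reg1 value was not tested.

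Loss of the Reg genes went together with loss of acinar genes. Over all genes of the table, 23 had at least 1 FPKM in each isolated islet library and were listed at 0 in all 8 grafts, 0.171% of the genes tested. Of these 23, 4 were Reg genes and 13 were on the acinar list, among them amylase Amy2a5, carboxypeptidase Cpb1 and the granule protein gene Zg16. The other 6, on neither list, were Aqp12, Tmed11 and 4 unnamed gene models, named here because the count is small. Their order of isolated islet libraries was that of the 13 acinar genes. In the acinar list 33 of 34 tested members were lower at day 60 and 34 of 34 at day 120, the exception being the amylase gene Amy1 (-1.68, limma adjusted p = 0.0962 at day 60). The summed level of the list was 10410 to 118200 FPKM before transplantation, 24.9 to 86.3 FPKM at day 60 and 15.9 to 20.2 FPKM at day 120. Most acinar genes, like the Reg genes, passed the filter through the isolated islets, so these counts carry the same limit.

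The duct is a second epithelium of the pancreas that can come along with isolated islets. Of 9 tested duct genes 5 were lower and 0 higher at day 60 and at day 120, where 12.3% and 7.03% of all tested genes were lower. The keratin gene Krt19 fell from 95.6, 18.4, 9.26 and 20.3 FPKM in isolated islets to between 0.057 and 0.720 FPKM in the grafts (limma adjusted p = 0.000125 at day 60 and 0.000270 at day 120). It was high in isolated islet replicate 1, which was low in Reg1, so its order of libraries differed from that of the Reg genes.

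A test of each member against Ctrb1 compared log2(member + 1) minus log2(Ctrb1 + 1) between grafts and isolated islets. In all 12 tests, 6 genes at 2 times, the exact two-sided permutation p was 0.0286, the smallest that 70 assignments allow. With Ctrb1 and the members at or near 0 in the grafts, the value restates how far each member lay below Ctrb1 in isolated islets, and it does not show that a member fell less. The comparison that these data allow lies within the isolated islets.

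Within isolated islets the levels kept 1 order in all 4 libraries, Reg1 above Reg2, Reg3b, Reg3d, Reg3a and Reg3g. Between libraries the ranges of every neighbouring pair overlapped, so the order rests on comparison within a library. Reg1 exceeded Reg2 by 2.24 to 5.56 times, Reg2 exceeded Reg3b by 1.15 to 1.58 times and Reg3b exceeded Reg3d by 4.23 to 4.64 times. Reg3d exceeded Reg3a by 2.08 to 2.87 times and Reg3a exceeded Reg3g by 1.53 to 3.67 times. Together the 6 genes summed to 549.8, 3387, 814.5 and 4356 FPKM in replicates 1 to 4. No share of all FPKM is given, since Ins2 was listed at 293150 and 316265 FPKM in replicates 3 and 4 and at 0 in replicates 1 and 2, which makes the library totals unlike.

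Reg1 followed the acinar enzymes closely from library to library. Ctrb1 stood at 1278, 12545, 2875 and 15370.5 FPKM in isolated islet replicates 1 to 4, so the highest library held over 10 times as much as the lowest. For every 100 FPKM of Ctrb1 there were 23.4, 18.3, 20.9 and 19.5 FPKM of Reg1, a range of 1.28-fold. Against the sum of the acinar list the range was 1.14-fold, with 2.87, 2.52, 2.56 and 2.53 FPKM of Reg1 per 100. The ratio of Reg1 to the acinar genes was thus nearly level in all 4 libraries while the acinar genes themselves varied widely.

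The other 5 members departed from this in 1 library. For every 100 FPKM of Ctrb1, Reg2 stood at 10.4 in isolated islet replicate 1 and at 4.03, 3.76 and 4.14 in replicates 2 to 4. Reg3b stood at 6.62 against 3.49, 2.70 and 3.51, and Reg3d at 1.43 against 0.795, 0.625 and 0.830. Reg3a stood at 0.685 against 0.322, 0.279 and 0.289.

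The departure was widest in Reg3g, at 0.448 FPKM per 100 FPKM of Ctrb1 in replicate 1 and 0.0949, 0.0760 and 0.0966 in replicates 2 to 4. Reg3g was also the lowest of the 6 members, at 5.72 FPKM in replicate 1 and 2.19 in replicate 3, with the read depth unknown. Relative to the mean of replicates 2 to 4, replicate 1 held 5.02 times as much Reg3g, 2.62 times as much Reg2, 2.31 times as much Reg3a, 2.05 times as much Reg3b and 1.90 times as much Reg3d per Ctrb1, against 1.20 times for Reg1. Ctrb1 was itself lowest in replicate 1, so a gene with the same FPKM in every library would also stand high per Ctrb1 there. This ratio was not computed over all genes. Without replicate 1 the ratios of all 6 members to Ctrb1 stayed within a 1.33-fold range. That evenness depended on the reference: over 6 acinar references (Ctrb1, Cela2a, Amy2a5, Cpb1, Prss2 and the list's sum) replicates 2 to 4 spanned up to 1.64-fold for Reg3b, 1.61-fold for Reg3d and 1.58-fold for Reg3g. For Reg2, Reg3a and Reg3g replicate 1 exceeded the highest of replicates 2 to 4 by more than those 3 differed among themselves with 6 of 6 references. For Reg3b and Reg3d this held with 4 of 6, and against Amy2a5 replicate 1 held 9.33 FPKM of Reg3b per 100, while the others held 6.17, 3.77 and 5.44. For Reg3b and Reg3d replicate 1 thus did not stand apart with every reference. The 6 references are not independent of each other, since 33 of 34 acinar genes were lowest in replicate 1. With a single library apart from 3 others, no test of this difference was made.

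**Figure D2:**
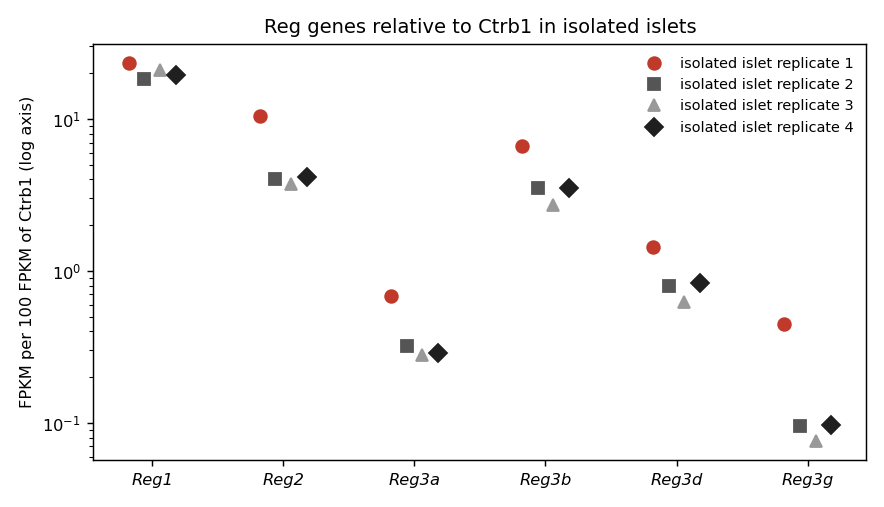
FPKM of each Reg gene per 100 FPKM of Ctrb1 on a log axis, in the 4 isolated islet libraries (red circles, replicate 1). Replicate 1, where Ctrb1 itself was lowest, lies above the other libraries in every gene, from 1.20 times their mean in Reg1 to 5.02 times in Reg3g.

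The departure was also seen as a change in the order of the libraries. Reg1 had the order replicate 4, 2, 3, 1, from highest to lowest, and so did 33 of 34 acinar genes with at least 1 FPKM in all 4 isolated islet libraries. That order was found in 1.89% of the 10822 genes that met this level. The other 5 Reg genes had the order 4, 2, 1, 3, found in 0.684% of those genes. Replicates 1 and 3 were nearly level in Reg3d (18.2 and 18.0 FPKM), Reg3a (8.76 and 8.02) and Reg3b (84.6 and 77.7). Their order thus rests on small differences. Both orders are those of the members themselves, so these shares are descriptions. On the acinar list 1 gene shared the order 4, 2, 1, 3. This was Dmbt1, which encodes a scavenger receptor protein of epithelial secretions and is named after its value was seen. Dmbt1 stood at 181, 240, 85.2 and 316 FPKM in isolated islets. Per Ctrb1, replicate 1 held 6.12 times as much Dmbt1 as the mean of replicates 2 to 4, above the 5.02 times of Reg3g. For Tff2, also on the acinar list, it held 1.61 times as much. The departure of replicate 1 was thus not particular to the Reg genes.

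The FPKM of replicate 1 divided by that of replicate 3 set Reg1 apart from the other members. It was above 1 in 5 of 6 Reg genes, with 0.498 for Reg1 and 1.02 to 2.62 for the others, and above 1 in 1 of 34 acinar genes, with a median of 0.437. In the duct list it was above 1 in 8 of 9 genes, with a median of 1.35, and in the endocrine list in 19 of 26, with a median of 1.25. Over all tested genes at this level it was above 1 in 5824 of 10822, with a median of 1.05. Reg3d, at 1.02, lay below that median, and Reg3a and Reg3b, at 1.09 each, lay close to it. A value above 1 was thus common and not particular to the Reg genes.

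**Figure D3:**
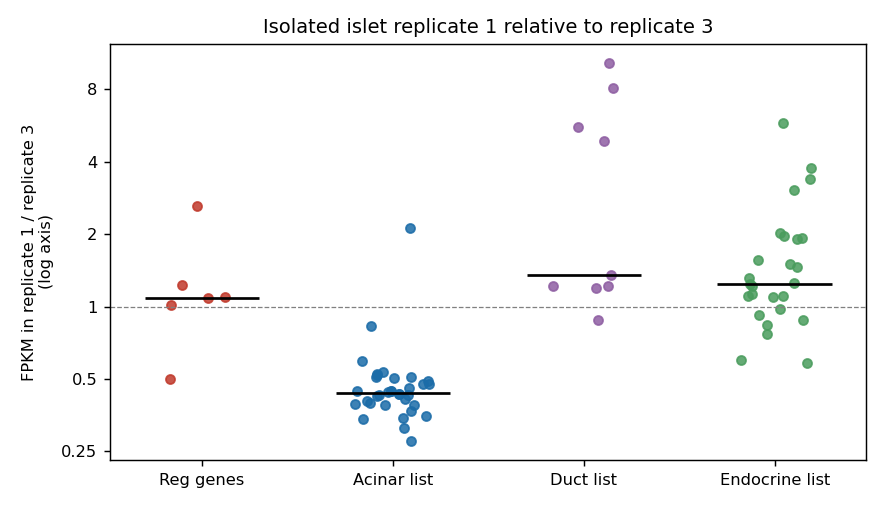
FPKM in isolated islet replicate 1 divided by that in replicate 3, on a log axis, for each gene with at least 1 FPKM in all isolated islets (6 Reg, 34 acinar, 9 duct and 26 endocrine genes), with black lines at the medians. Of the Reg genes Reg1 lies among the acinar genes and the other 5 lie at or above 1.

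Isolated islet replicate 1 stood apart in many other genes. It was the highest of the 4 libraries in 47.0% of the 10822 tested genes with at least 1 FPKM in each, and at more than 2 times the next library in 7.89% of them. In the duct list it was highest in 7 of 9 genes, in 3 of them by more than 2 times (Krt19, Spp1 and Sox9), while Krt8 was lowest there, and the duct sum of 1033 FPKM lay within the 710.4 to 1058 FPKM of the other libraries. In the endocrine list it was highest in 15 of 26 genes, in 5 of them by more than 2 times, the beta cell genes Nkx6-1, Mafa, Slc2a2, Ucn3 and G6pc2, the last at 1133 FPKM against 156 to 265. In the list of Stat3 and acute phase targets it was highest in 5 of 12, in 3 by more than 2 times (Junb, C3 and Cish). In the acinar list it was highest in 0 and lowest in 33 of 34. Stat3 stood at 39.1 FPKM there against 87.4 to 107. Genes named in these counts were chosen after their values were seen. The part of these differences in the Reg ratios was not tested.

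Genes with a pattern most like that of each member were taken as the 5 tested genes with the highest Pearson correlation of log2(FPKM + 1) over the 12 libraries, leaving out unnamed models and short RNAs. These correlations are descriptions, dominated by the difference between isolated islets and grafts that all these genes share. For Reg1 all 5 were acinar enzyme genes, led by Amy2b (0.999), Rnase1 (0.999) and Cela2a (0.999). For Reg2 the first was Reg3b (0.999), followed by the trypsinogen genes Prss2 and Try5 (0.998 each). Reg3a and Reg3d were each other's first match (0.9995), and for both the acinar trefoil factor gene Tff2 came second. Tff2 led the list of Reg3b (0.999). Reg3g was most like Reg3a (0.989) and Reg3d (0.987). In the 8 grafts such a ranking could not be made, since the members were at or near 0.

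The genes that carry the signals known to raise Reg expression did not move in 1 direction. In a list of 24 receptors, ligands and kinases of this pathway 19 were tested, of which 3 were higher and 5 lower at day 60, and 3 higher and 5 lower at day 120. Among all tested genes 31.3% were higher and 12.3% lower at day 60, and 24.3% and 7.03% at day 120. The median log2 difference of the list was -0.03 at day 60 and 0.11 at day 120, against 0.27 and 0.30 over all tested genes.

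Among the ligands, Il6 stood at 1.39, 5.10, 2.82 and 2.81 FPKM in isolated islets, at 2.51, 0, 0 and 0.076 in day 60 grafts and at 0.106, 0, 0.112 and 0.310 in day 120 grafts. It was called lower at both times (limma adjusted p = 0.00987 and 0.00761; 0.126 and 0.0767 when libraries were scaled to 14 endocrine genes), with graft day 60 replicate 1 inside the range of the isolated islets. Lif, another ligand of the same receptor family, fell from 2.30 ± 1.20 to 0.480 ± 0.400 and 0.337 ± 0.191 FPKM (SD, n = 4; limma adjusted p = 0.00479 and 0.00603), with the day 60 call lost under the endocrine scaling (limma adjusted p = 0.0597). Il22 was at 0 in each isolated islet library and at no more than 0.230 FPKM in any graft, and its receptor gene Il22ra1 did not exceed 0.415 FPKM in any library. Neither was tested. Il6 and Il22 and their receptors are named for their roles in this pathway, not by the rule for named genes.

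Among the receptors, Extl3 averaged 6.50 ± 1.16 FPKM before transplantation, 9.50 ± 3.45 at day 60 and 8.47 ± 1.44 at day 120 (SD, n = 4). Neither difference passed (limma adjusted p = 0.147 and 0.277), though that at day 60 did without graft day 60 replicate 2 (limma adjusted p = 0.024). Il6ra, the interleukin-6 receptor gene, stood at 14.7 ± 8.59, 26.2 ± 9.53 and 43.0 ± 5.79 FPKM. It rose at day 120 (log2 difference 1.62, SE 0.349, limma adjusted p = 0.00737) and did not pass at day 60 (0.84, limma adjusted p = 0.0668). It passed at day 60 without isolated islet replicate 1 (1.17, limma adjusted p = 0.00745) and without graft day 60 replicate 1 (1.16, limma adjusted p = 0.00733). Il11ra1, the interleukin-11 receptor gene, was higher at day 60 (log2 difference 1.97, limma adjusted p = 0.00179) and at day 120 (1.04, limma adjusted p = 0.0457). The day 120 call was lost when isolated islet replicate 2, 3 or 4 or any single day 120 graft was left out (limma adjusted p of 0.064 to 0.113).

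Of the signalling genes, Stat3 had the smallest p of the list at both times. It stood at 39.1, 102, 107 and 87.4 FPKM in isolated islets, at 24.2, 16.4, 20.4 and 22.9 in day 60 grafts and at 40.5, 21.1, 18.7 and 29.3 in day 120 grafts. All day 60 grafts lay below all isolated islets, while graft day 120 replicate 1 lay above isolated islet replicate 1. The log2 difference was -1.86 (SE 0.315, limma adjusted p = 0.00117) at day 60 and -1.54 (SE 0.315, limma adjusted p = 0.00586) at day 120. The kinase gene Tyk2 rose from 2.99 ± 0.832 to 7.13 ± 1.24 and 6.28 ± 0.924 FPKM (limma adjusted p = 0.00160 and 0.00679), and the day 120 call was lost with the endocrine scaling (limma adjusted p = 0.391).

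Known targets of Stat3 and of the acute phase response split in 2 directions. Of 18 tested genes in a list of 24, 9 were higher and 5 lower at day 60, and 6 higher and 5 lower at day 120. Over all tested genes 31.3% were higher and 12.3% lower at day 60, and 24.3% and 7.03% at day 120. The median log2 difference of the list was 1.01 at day 60 and 0.43 at day 120, against 0.27 and 0.30 over all tested genes. Genes of host and immune cells were higher in the same grafts. At day 60 these were 10 of 11 macrophage, 6 of 7 granulocyte and mast cell, 8 of 8 fibroblast and 10 of 10 adipocyte genes. At day 120 the counts were 9 of 11, 6 of 7, 8 of 8 and 8 of 10. The mast cell genes Mcpt4, Tpsb2 and Cma1 had the smallest p of the granulocyte and mast cell list at both times. The part of these cell types in the counts of Stat3 and acute phase targets was not tested. The feedback inhibitor gene Socs3 fell from 27.4 ± 6.72 FPKM to 8.67 ± 3.17 and 8.08 ± 1.30 (limma adjusted p = 0.000545 and 0.000837). The NF-kappaB regulator gene Bcl3 fell from 15.5 ± 4.19 to 5.75 ± 1.97 and 4.23 ± 0.419 FPKM (limma adjusted p = 0.00142 and 0.000847), and its day 60 call was lost with the endocrine scaling (limma adjusted p = 0.0986).

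The haptoglobin gene Hp moved the other way. It stood at no more than 1.53 FPKM in isolated islets, at 31.7 to 963 in day 60 grafts and at 32.6 to 257 in day 120 grafts (limma adjusted p = 0.000959 and 0.00425). Adipocytes are known to express Hp, and in both graft groups its highest library was replicate 1, whose adipocyte sums were 10900 FPKM at day 60 and 1006 FPKM at day 120, where replicate 3 had 1018 FPKM. The part of host fat in the rise of Hp was not tested.

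**Figure D4:**
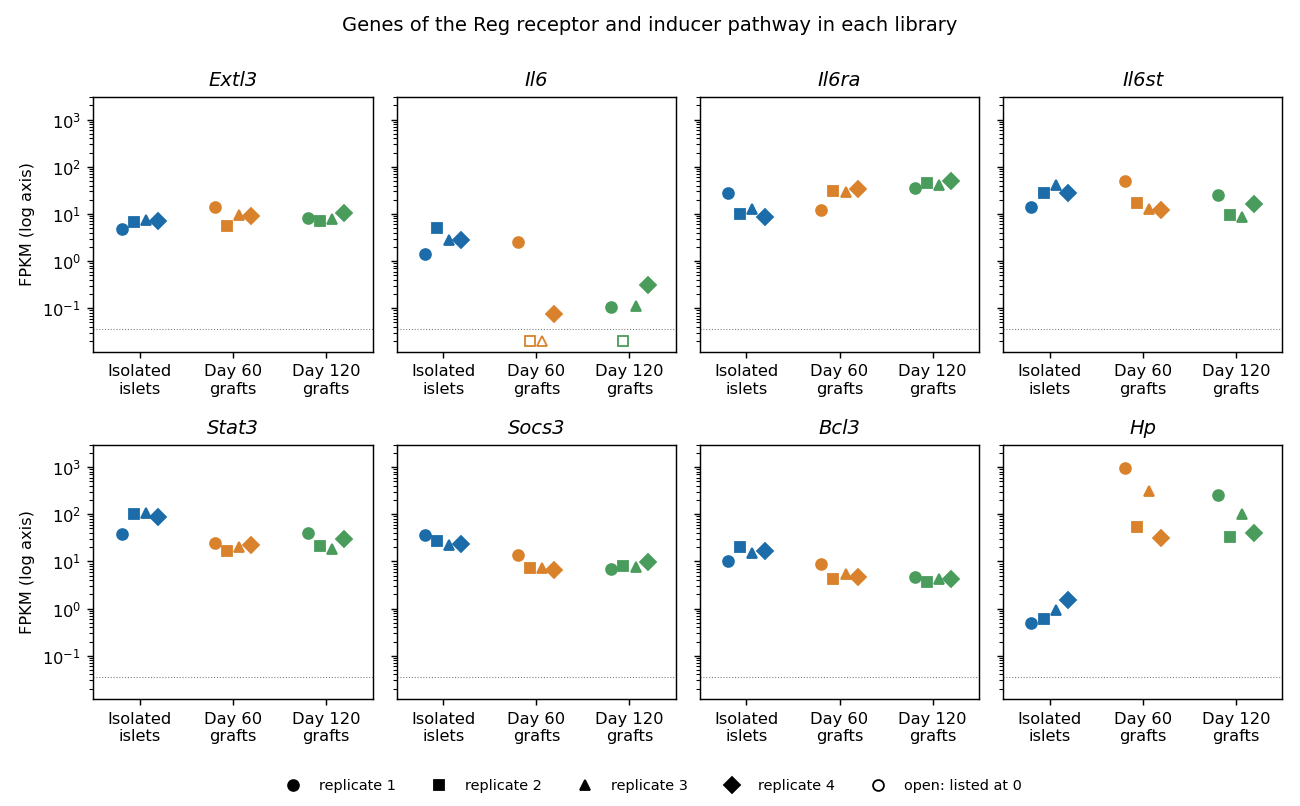
FPKM on a log axis of 8 genes in each library, with open points under the dotted line for values listed at 0. Extl3, Il6, Il6ra, Il6st and Stat3 are from the Reg receptor and inducer list, and Socs3, Bcl3 and Hp from the list of Stat3 and acute phase targets. Stat3, Socs3 and Bcl3 are lower in day 60 grafts than in isolated islets, Hp is higher, and Extl3 overlaps between the groups.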

How the data were processed

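RNA from 12 mouse libraries, 3 groups of 4, was sequenced after SMARTer low-input cDNA synthesis, per the labels' protocols. The deposited table holds FPKM values made by the authors, 1 column per library, with TopHat2, Cufflinks 2.1.1 and the build mm9 per the submitters' processing notes. The annotation, the options and any scaling across columns are not given in the sources used here. No depth can be read from FPKM, so no counting interval is given.

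Genes with at least 1 FPKM in at least 4 libraries (13433 of 23234) were compared as log2(FPKM + 1) with limma 3.58.1 in R 4.3.3, statmod 1.5.0, fitting the 3 groups together without covariates and with an intensity trend and robust variances. Two-sided p-values were adjusted by Benjamini-Hochberg over all 13433 genes, with a threshold of 0.05. The fit was tested on simulated data. Sequence alignments used Biopython 1.88. Members and lists were chosen with earlier results of these data known.

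Named genes were all members, Reg4 and Ctrb1, up to 3 genes of each counted list with the smallest p, and the 5 genes most like each member. Others are marked or named as list examples after their values were seen. Same-numbered day 60 and day 120 grafts deviated together, with correlations of 0.18 to 0.442 over tested genes. Differently numbered grafts of these groups had correlations of -0.383 to 0.0982. The labels do not say what equal numbers share, so a pairing of the grafts is not established. Same-numbered grafts and isolated islets did not deviate together (-0.0784 to 0.0199).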

Additional observations from a re-analysis of the deposited data

Results flagged for a closer look

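Of 18 sets of 4 libraries that could be checked, 7 had a library whose gap to its nearest neighbour took up more than 0.829 of the whole range. Chance alone marks about 1 in 20 sets of continuous values, but that rate does not hold here: in 4 of the 7, 3 libraries were listed at 0, so any value above 0 takes up the whole range, and the other 3 share the values of Ctrb1. The number of sets is therefore not set against chance. In isolated islets, replicate 1 stood apart in the level per 100 FPKM of Ctrb1 for Reg2 (10.4), Reg3a (0.685) and Reg3g (0.448). In the grafts, single libraries were above 0 where the other 3 were listed at 0. These were Reg1 in graft day 120 replicate 1 (0.166 FPKM), Reg3g in graft day 60 replicate 1 (0.222 FPKM) and Ctrb1 in replicate 4 at day 60 (0.098 FPKM) and at day 120 (0.133 FPKM). Such values lie at the low end of the table, where the depth behind them is unknown.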

How the results depend on the processing

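Against isolated islets, each member stayed lower and past the threshold in all 250 values from alternative fits, with a highest limma adjusted p of 0.0037. The members passed the filter through the isolated islets and were at or near 0 in the grafts. These fits thus had little room to change the call, and they are no further evidence about the family. Reg3g could not be tested at a minimum of 5 FPKM. The added constant set the size: with 0.1 in place of 1, Reg1 at day 120 went to -13.01. Where a library was left out, the tested genes were kept as they were. The counts of genes called moved more. At day 60, 5865 genes were called, 2883 with endocrine reference scaling and 9356 with array weights, and 4152 to 6950 without 1 replicate. At day 120, 4212 were called, 550 with endocrine reference scaling, 8853 with array weights, 7571 when replicate 1 of the isolated islets and of the day 60 grafts were dropped together, and 1986 to 5609 without 1 replicate (2048, 2092 and 1986 without isolated islet replicates 2, 3 and 4, 2541 and 2553 without graft replicates 2 and 4). Between the grafts, 2 were called, 4 without a filter, 1 with the stricter filter, 459 with array weights and 2 to 21 without 1 replicate (21 without graft day 60 replicate 4). The cause was not tested. The share called higher, 71.8% at day 60 and 77.6% at day 120, was 60.6% and 63.8% with upper-quartile scaling, 45.2% and 45.6% with quantile normalization, 44.3% and 58% with a sum without hormone, Reg and acinar genes, and 82.2% and 22.2% with endocrine reference scaling. The median log2 difference of all genes, 0.265 at day 60 and 0.302 at day 120, ran from -0.07 to 0.419 and from -0.139 to 0.302 over these scalings. With the replicate block 5804, 4254 and 2 genes were called, and no call of a member changed. Extl3 reversed at day 120 with endocrine reference scaling, to -0.14. At day 60 it passed with array weights (limma adjusted p = 0.0315), as did Il6ra (3.28e-06), and Il6ra also with endocrine reference scaling (0.0254). The Il11ra1 call at day 120 was lost without a filter and with upper-quartile, quantile and endocrine reference scaling (limma adjusted p of 0.0619 to 0.619). With Ctrb1 and 5 other acinar references, the latter added after the data were seen, isolated islet replicate 1 over the mean of replicates 2 to 4 ran from 1.04 to 1.27 for Reg1, 2.26 to 2.76 for Reg2, 1.98 to 2.43 for Reg3a, 1.75 to 2.14 for Reg3b, 1.63 to 1.99 for Reg3d and 4.3 to 5.26 for Reg3g.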

Other observations

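Of 6 regulators of acinar genes on a list of such genes, 2 that encode subunits of the acinar PTF1 complex were low. Rbpjl, which encodes the acinar-specific subunit, stood at 0.326, 5.46, 1.02 and 7.13 FPKM in isolated islet replicates 1 to 4 and at no more than 0.132 FPKM in any graft. Ptf1a, the other defining subunit, was at 0.188, 0.702, 0 and 0.895 FPKM in isolated islets and at 0 in all 8 grafts. Nr5a2 and Gata4, also on the list, stood at 0.503 to 1.18 and 0.205 to 1.42 FPKM in isolated islets. In grafts they did not exceed 0.332 and 0.257 FPKM. Rbpjl and Gata4 had the same order of isolated islet libraries as Reg1 and Ctrb1. Ptf1a had the order of the other 5 Reg genes, and Nr5a2 had neither order. None of these genes passed the filter, so none was tested. Of the list 2 genes were tested. Xbp1, a regulator of secretory cells that beta cells also express, was lower at day 60 (log2 difference -0.74, limma adjusted p = 0.00713) and did not pass at day 120 (-0.51, with a limma adjusted p just above the threshold). Bhlha15, another such regulator, averaged 15.1 ± 1.75 FPKM in isolated islets, 15.7 ± 9.96 at day 60 and 24.2 ± 5.65 at day 120 (SD, n = 4), and neither difference passed (limma adjusted p = 0.776 and 0.172).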
